A study of Mus musculus with 3 samples.

Results

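Oncostatin M (OSM) and its relatives of the interleukin-6 (IL-6) family signal through receptors that, with the exception of that for IL-31, share the chain gp130, and 10 genes of this route were followed in the endothelial cells (ECs) of mouse lungs that had or had not received melanoma cells. The genes were taken by symbol: the receptor chains Il6st, Osmr, Lifr, Il6ra, Il31ra and Il11ra1, the Janus kinases Jak1, Jak2 and Tyk2, and the transcription factor Stat3. They are 10 of the 32285 genes listed in the files, and all 10 were detected.

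The ECs came from wild-type C57BL/6 mice, by the study's methods young adult males, and 3 libraries were made, 1 per group. The control mice received PBS into the tail vein and were taken after 6 h. The melanoma groups received 200000 B16-F10 cells, a mouse melanoma line from the same strain, in 100 µl of PBS by the same route, and were taken after 6 h or after 30 h. Lungs were digested for 1 h at 37 °C with collagenase and Pecam1+ Ptprc- cells were sorted. Tracker-labelled melanoma cells were added to the 6 h sample, and the study's text has such cells isolated at 30 h as well. Barcodes with melanoma markers and no Pecam1 or Cdh5 count numbered 15 at 6 h and 0 at 30 h. Each library is a pool of mice, 2 per treatment by the labels and 3 by the methods for this experiment, which could not be reconciled here. No PBS control was taken at 30 h, so time after injection and melanoma exposure cannot be told apart in the 30 h library.

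Most cytokines of the family act through gp130, the product of Il6st. OSM binds gp130 together with the OSM receptor chain (Osmr) and, in the mouse, to a lesser extent with the LIF receptor chain (Lifr), whereas IL-6 and IL-11 first bind their own chains (Il6ra, Il11ra1) and IL-31 uses Il31ra paired with Osmr in place of gp130. The chains carry no kinase activity: JAK1, JAK2 and TYK2 are bound to them, phosphorylate them and then STAT3, which enters the nucleus and switches on its targets, among them SOCS3, an inhibitor that shuts the receptor down again. In endothelium this route is known for inducing adhesion molecules, chemokines and acute-phase genes, and it is STAT3 phosphorylation, which RNA does not show, that marks it as active.

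STAT factors bind the palindrome TTCNNNGAA, so the windows from 250 bases before to 50 bases after the RefSeq start (GRCm38.p6) were searched for it. This motif is its own reverse complement, which makes 1 search cover both strands. Of 32851 windows of 300 bases in the table, 2726 (8.30%) held it. The 10 genes had 12 windows, of which 1 held a match, that of Il31ra. Among 24 genes listed as STAT3 targets, 21 had a window and 5 had a match (Bcl6, Icam1, Irf1, Sbno2 and Tnfrsf1a), and among 16 feedback inhibitors 9 had a window and 2 a match (Cish and Socs3). Targets and inhibitors were counted by gene, and a gene such as Bcl6 can have several windows. Their shares are thus not on the scale of the 8.30% of windows. The windows of Osmr and Stat3, which moved together between libraries, of Il31ra, and of Socs3 and Bcl6 as targets with matches, are given 5′ to 3′ on the gene's own strand, with matches in capitals.
Osmr, chr15:6874264-6874563, minus strand: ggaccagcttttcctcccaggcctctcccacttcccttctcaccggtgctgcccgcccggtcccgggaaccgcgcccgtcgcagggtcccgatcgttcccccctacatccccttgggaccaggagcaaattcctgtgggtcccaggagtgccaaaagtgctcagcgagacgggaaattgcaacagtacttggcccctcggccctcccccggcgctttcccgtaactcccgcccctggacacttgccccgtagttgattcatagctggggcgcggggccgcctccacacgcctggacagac
Stat3, chr11:100939491-100939790, minus strand: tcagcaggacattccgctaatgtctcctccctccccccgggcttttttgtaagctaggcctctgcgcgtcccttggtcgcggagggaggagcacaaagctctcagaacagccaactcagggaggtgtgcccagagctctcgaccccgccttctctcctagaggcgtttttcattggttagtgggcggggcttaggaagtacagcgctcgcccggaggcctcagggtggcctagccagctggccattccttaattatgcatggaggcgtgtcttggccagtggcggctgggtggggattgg
Il31ra, chr13:112580613-112580912, minus strand: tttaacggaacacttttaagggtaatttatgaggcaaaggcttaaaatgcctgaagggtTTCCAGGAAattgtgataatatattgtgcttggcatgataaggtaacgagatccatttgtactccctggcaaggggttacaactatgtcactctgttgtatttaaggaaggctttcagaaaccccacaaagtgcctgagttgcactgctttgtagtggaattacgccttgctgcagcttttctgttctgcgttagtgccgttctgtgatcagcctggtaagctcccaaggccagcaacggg
Socs3, chr11:117969317-117969616, minus strand: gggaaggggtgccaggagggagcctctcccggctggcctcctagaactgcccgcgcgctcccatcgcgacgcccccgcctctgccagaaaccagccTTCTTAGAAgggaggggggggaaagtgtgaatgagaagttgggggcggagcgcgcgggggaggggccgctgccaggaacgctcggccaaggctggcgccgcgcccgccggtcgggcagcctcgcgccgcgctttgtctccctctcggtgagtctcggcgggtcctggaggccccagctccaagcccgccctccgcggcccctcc
Bcl6, second start, chr16:23981234-23981533, minus strand: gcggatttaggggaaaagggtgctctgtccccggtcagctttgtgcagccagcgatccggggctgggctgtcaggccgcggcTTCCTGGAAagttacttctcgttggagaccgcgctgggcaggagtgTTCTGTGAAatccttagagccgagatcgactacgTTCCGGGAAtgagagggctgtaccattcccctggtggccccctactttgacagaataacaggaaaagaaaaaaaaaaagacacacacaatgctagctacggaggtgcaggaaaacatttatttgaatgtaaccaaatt
A match is a run of letters and not a bound site, and its absence from a window of this length says nothing about the factor.

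Endothelial barcodes were those with 1000 to 5000 genes, under 20% of unique molecular identifiers (UMIs, 1 per captured RNA molecule) from mitochondrial genes and at least 2 UMIs of Pecam1 and Cdh5. They numbered 11231 in the control, 10583 in the 6 h and 9278 in the 30 h library, out of 15660, 15100 and 13082 barcodes with at least 300 genes, and their median UMI count lay between 7782 and 8676. Between 22 and 38 endothelial barcodes were shared by a pair of libraries. The 8 endothelial markers, all detected, summed to 7616 to 8820 CPM in gCap. The 30 h library stood apart by gene models that can take up ribosomal RNA and the 6 h library by stress genes, and their values are given beside the results they move with. Marker genes placed 5600 to 7316 barcodes per library among general capillary cells (gCap), 1152 to 1429 among aerocytes (aCap, the thin gas-exchange capillary cells), 157 to 211 among arterial, 435 to 582 among venous and 50 to 66 among lymphatic cells. These gated classes are gCap-like, aCap-like and so on, and the short names are used from here. The arterial class was the least sharply gated of the non-capillary ones. In the control, 6 h and 30 h libraries 82 of 196, 80 of 157 and 73 of 211 arterial barcodes lay at or near the limits of the gate. In vein these were 90 of 582, 70 of 435 and 73 of 467. Lymphatic cells gave the fewest UMIs, and their values carry the widest intervals. Levels are in CPM, UMIs per 1000000 UMIs of the summed cells, with exact Poisson intervals where printed, and all intervals between libraries cover counting error only.

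The classes differed widely in receptor chains, and each class was seen in all 3 libraries, so this comparison has replicates. Across the 15 sums of 5 classes and 3 libraries, edgeR's quasi-likelihood test with library as a block and Benjamini-Hochberg adjustment over 12911 genes called 9 of the 10 genes lower in aCap than in gCap, 2 higher in arterial, 5 higher in venous, and 2 higher and 3 lower in lymphatic cells. Of all genes tested, 52.8% were called between aCap and gCap (26.3% higher, 26.5% lower), 20.5% between artery and gCap (11.3% and 9.24%), 28.0% between vein and gCap (16.1% and 11.9%) and 38.2% between lymphatic and gCap cells (18.4% and 19.7%). The 6 other pairs of classes gave 37 calls of 60, where 46.3% of all genes were called between artery and aCap, 50.6% between vein and aCap, 44.9% between lymphatic cells and aCap, 25.1% between vein and artery, 32.8% between lymphatic cells and artery and 37.2% between lymphatic cells and vein. The error in these tests is the spread of class differences over libraries that also differ in treatment.

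**Figure D1:**
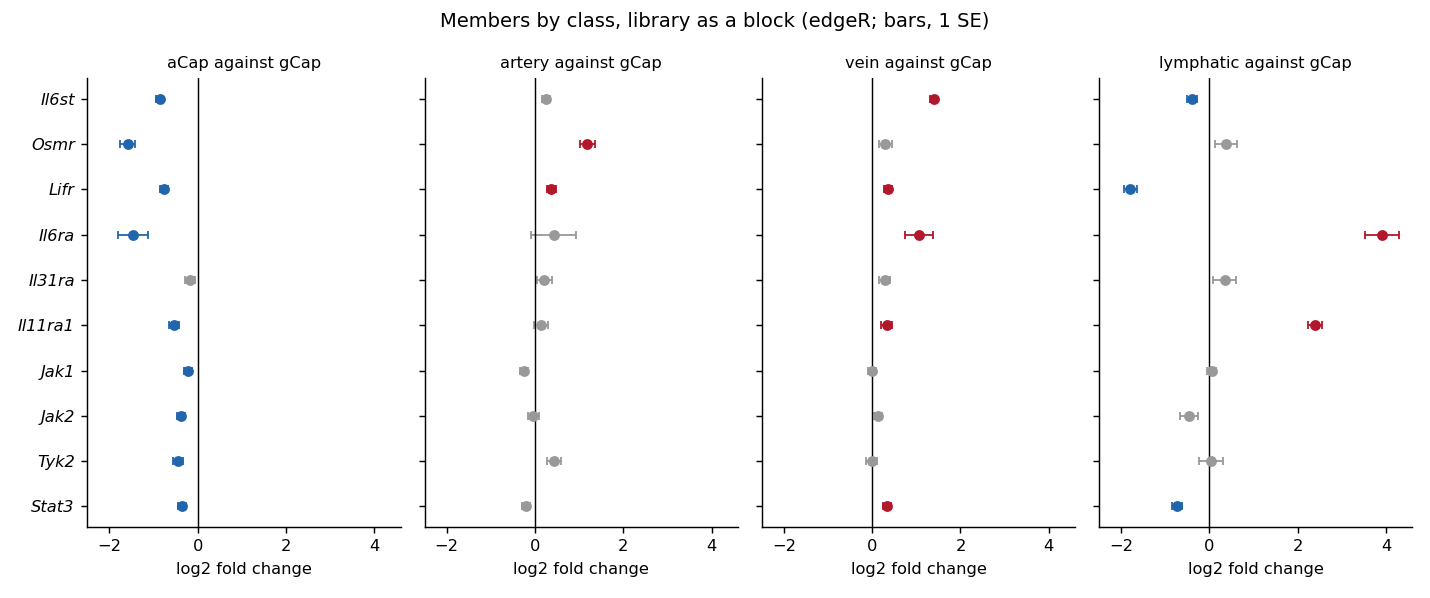
Each panel shows the log2 fold change of the 10 genes in a class against gCap, fitted over 3 libraries, with bars of 1 SE. Blue points were called lower, red points higher and grey points not called at an adjusted p of 0.05: aCap lies left of gCap for all genes, Il6st stands out in vein (1.39), Osmr in artery (1.19) and Il6ra in lymphatic cells (3.91).

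Il6st, the shared chain gp130 (chr13:112464070-112510086), was highest in veins. Venous cells held 527 CPM in the control, 581 at 6 h and 494 at 30 h, against 216, 257 and 175 CPM in gCap, so the classes did not overlap in any library. The fitted difference was a log2 fold change of 1.39 (SE 0.087, edgeR adjusted p = 5.4e-10). Arterial cells held 234, 316 and 223 CPM and did not pass the test against gCap (0.25, SE 0.092, adjusted p = 0.064). With stricter class gates this arterial difference was called. In aCap the level was 104, 124 and 116 CPM (-0.87, SE 0.087, edgeR adjusted p = 1.5e-07). Empty droplets held 168, 197 and 160 CPM of Il6st, more than aCap in all 3 libraries, and the part of free RNA in the aCap level was not tested. Lymphatic cells, with 146, 203 and 165 CPM, lay between aCap and gCap, with a log2 fold change of -0.40 against gCap (adjusted p = 0.011) and 0.46 against aCap (adjusted p = 0.0042). The order was thus vein above artery and gCap, whose difference did not pass the test, then lymphatic cells, then aCap. The place of lymphatic cells was less firm: without other-lineage barcodes, which left 1, 7 and 2 lymphatic cells, neither call held (-1.02 against gCap, adjusted p = 0.20, and -0.044 against aCap, adjusted p = 0.97). The call against gCap was also lost without the control library (-0.29, adjusted p = 0.18) or the library block (-0.41, adjusted p = 0.078), and that against aCap without the 6 h library (0.38, adjusted p = 0.068). After thinning every cell to 2000 UMIs, 59.3%, 66.4% and 61.5% of venous cells held an Il6st UMI, against 33.3%, 37.7% and 27.6% of gCap cells.

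Osmr, the chain that makes the OSM-specific receptor (chr15:6813577-6874969), peaked in arteries instead. Arterial cells held 189 CPM in the control, 208 at 6 h and 123 at 30 h, and gCap held 71.3, 108 and 52.7 CPM. The difference was 1.19 (SE 0.16, edgeR adjusted p = 2.7e-05). Venous cells held 101, 132 and 43.8 CPM, which was below artery (-0.89, adjusted p = 8.3e-04) and did not pass the test against gCap (0.30, adjusted p = 0.17). Without the 30 h library, in which the venous level was below that of gCap, the difference of vein from gCap was 0.47 and passed (adjusted p = 0.021). aCap was the lowest class, at 21.7, 33.5 and 18.9 CPM (-1.59, SE 0.16, edgeR adjusted p = 1.4e-07). Empty droplets held more Osmr than aCap in all 3 libraries (43.2, 73.8 and 34.5 CPM). They are barcodes with under 100 UMIs, against medians of 10854, 11082 and 11824 UMIs in aCap cells. The part of free RNA in the aCap level was not tested. Lymphatic cells held 133, 71.8 and 91.9 CPM and did not pass against gCap (0.38, adjusted p = 0.26), although leaving out the 6 h library moved the difference to 0.75 (adjusted p = 0.030) and leaving out other-lineage barcodes turned it to -1.81 (adjusted p = 0.23).

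Lifr, the LIF receptor chain (chr15:7090614-7197489), was lowest in lymphatic cells, with aCap between them and the other blood classes. Its level was 82.2, 84.2 and 77.2 CPM in lymphatic cells and 326, 228 and 249 CPM in gCap, and no library of either class overlapped with the other (-1.79, SE 0.15, edgeR adjusted p = 1.8e-08). Empty droplets held 203, 163 and 146 CPM of Lifr, more than lymphatic cells in all 3 libraries, and the part of free RNA in the lymphatic level was not tested. Arterial cells held 415, 349 and 279 CPM and venous cells 389, 274 and 312 CPM, higher than gCap by 0.37 (adjusted p = 0.012) and 0.35 (adjusted p = 0.0093). These small differences lost the call without the control library (artery adjusted p = 0.057, vein 0.054) and without the 6 h library (artery 0.27, vein 0.075). The difference between artery and vein was not called. aCap held 154, 143 and 158 CPM (-0.77, SE 0.096, adjusted p = 2.7e-06). Lymphatic cells were called lower than aCap too (-1.03, edgeR adjusted p = 3.1e-05). Empty droplets held more Lifr than aCap in the control and at 6 h, and the part of free RNA in the aCap level was not tested.

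**Figure D2:**
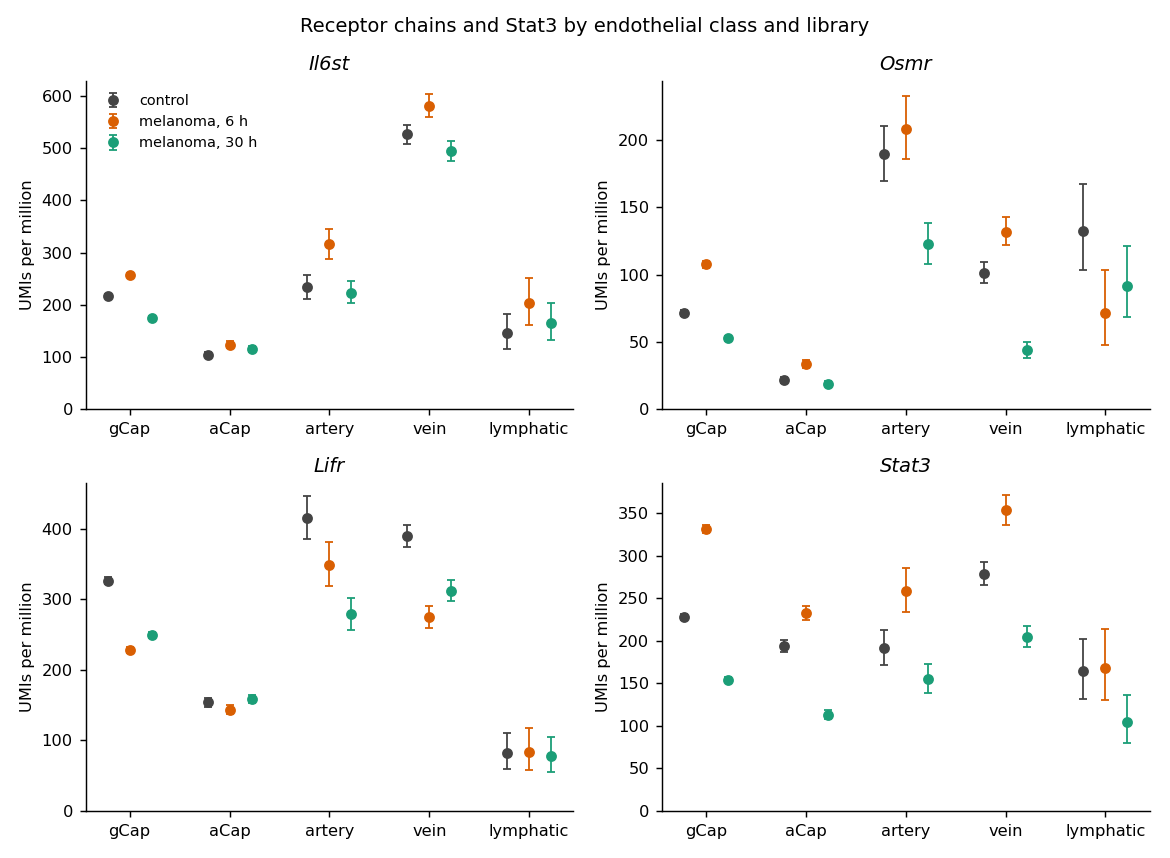
The panels plot the level (CPM) of Il6st, Osmr, Lifr and Stat3 in each class (x axis) and library (colour), with exact Poisson 95% intervals. Il6st is highest in vein at 494 to 581 and Osmr highest in artery at 123 to 208, Lifr is lowest in lymphatic cells at 77.2 to 84.2, and Stat3 is highest at 6 h in every class by value, with overlapping intervals in lymphatic cells.

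The specific chains of IL-6 and IL-11 were concentrated in lymphatic cells. Il6ra (chr3:89864059-89913196) was barely present in blood ECs, with 1.64, 1.55 and 1.08 CPM in gCap, from 100, 95 and 55 UMIs. In lymphatic cells it reached 28.0, 22.3 and 16.5 CPM, from 15, 9 and 9 UMIs (3.91, SE 0.39, edgeR adjusted p = 1.4e-07). The test's filter on low counts was met for Il6ra by sums of lymphatic, venous and arterial cells. The sums of gCap and aCap did not meet it, so the call is not independent of the filter. Il6ra was tested under 8 alternatives, where the other members had 9. Empty droplets held 5.49 to 7.17 CPM of Il6ra, more than gCap in all 3 libraries. The part of free RNA in the gCap and venous levels was not tested. Venous Il6ra was higher than gCap by 1.06 (adjusted p = 0.015) on 8 to 20 UMIs per library, at 2.76, 4.33 and 1.57 CPM, by value also below the empty droplets of each library, and the call was lost without the control or the 6 h library (adjusted p = 0.078 and 0.27). Il11ra1 (chr4:41699989-41769474) held 95.3, 168 and 147 CPM in lymphatic cells against 24.5, 28.1 and 21.7 CPM in gCap (2.38, SE 0.16, edgeR adjusted p = 7.0e-10). Empty droplets held 26.1, 30.5 and 31.7 CPM of Il11ra1, by value more than gCap in all 3 libraries, and the part of free RNA in the gCap level was not tested. The near-identical copies listed as Il11ra2 had 0 UMIs, and reads shared between the copies could have been dropped in counting, so the level of Il11ra1 is uncertain while its ratio between classes is less so. Venous Il11ra1 was only just called (0.33, adjusted p = 0.049) and lost the call whichever library was left out.

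None of the 3 kinases was called between gCap and artery, vein or lymphatic cells. Stricter class gates added calls for Jak1 and Tyk2 in artery. In gCap, Jak1 (chr4:101152367-101265282) held 275, 348 and 258 CPM, Jak2 (chr19:29251828-29313080) 52.6, 65.5 and 41.3 CPM and Tyk2 (chr9:21104068-21131243) 21.9, 19.2 and 17.4 CPM. All 3 were lower in aCap, with log2 fold changes of -0.39 for Jak2, -0.45 for Tyk2 and -0.21 for Jak1, and the small Jak1 difference (edgeR adjusted p = 0.046) was lost without the control library (adjusted p = 0.099) or the 6 h library (0.33). The Jak2 and Tyk2 calls were also each lost under at least 1 of 9 alternatives, all of which kept the direction. Stat3 (chr11:100885098-100939540) was highest in veins at 279, 353 and 204 CPM against 228, 331 and 154 CPM in gCap (0.33, edgeR adjusted p = 0.0072; 0.074 without the control library). It was lower than gCap in aCap (-0.36) and in lymphatic cells, which held 164, 168 and 105 CPM (-0.73, edgeR adjusted p = 8.7e-05). Both of these Stat3 calls were lost under at least 1 of 9 alternatives, all of which kept the direction.

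The targets and inhibitors of the route were next read along the same class axis. Of 24 genes listed as STAT3 targets, 14 were higher and 2 lower in vein than in gCap, while 2 were higher and 14 lower in artery (the shares among all genes were 16.1% and 11.9% for vein and 11.3% and 9.24% for artery). In aCap 6 were higher and 9 lower (26.3% and 26.5% of all genes), and in lymphatic cells 5 were higher and 15 lower (18.4% and 19.7%). In veins the largest differences among the list were those of Lrg1, a secreted glycoprotein of the acute phase (log2 fold change 3.95, SE 0.16), and Icam1, the adhesion molecule for leukocytes (1.96, SE 0.12). Neither was particular to vein, as both were also called higher in aCap than in gCap (1.29 and 1.60). In artery Lrg1 was called lower (-1.35) and Icam1 was not called (-0.02). Pim3, a serine/threonine kinase, was higher in vein by 1.34 (SE 0.11) and lower in artery (-0.58, SE 0.14). Socs3, the inhibitor that binds gp130, was higher in vein by 0.54 and lower in artery (-1.65, SE 0.15, edgeR adjusted p = 1.3e-07). It was also lower in aCap (-1.31, SE 0.14) and in lymphatic cells (-3.09, SE 0.20). Socs1 and Cish were likewise lower in artery (-1.74 and -1.16) and Socs2 was higher in both artery and vein (0.56 and 1.18). The list includes Fos and Junb, which also belong to the immediate early genes and were higher in vein (0.86 and 0.87) and lower in artery (-0.81 and -0.93). The share of cells with a UMI of the heat shock or stress genes Hspa1a, Hspa1b or Atf3 was 70.8% in vein, 44.9% in artery and 46.8% in gCap of the control library, and its part in these class differences was not tested.

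Outside the 10 genes, other receptor chains that use gp130 or resemble it also differed among vessels. Lepr, the leptin receptor, held 173, 175 and 158 CPM in artery and 62.9, 62.1 and 54.5 CPM in gCap (1.49, SE 0.10, edgeR adjusted p = 2.4e-09), and it was higher in vein by 1.31. Il27ra, which pairs with gp130 for IL-27, was higher in artery by 3.16 (SE 0.37), at 6.64, 6.79 and 7.21 CPM on 12, 10 and 15 UMIs. Its sums met the filter on low counts only in artery and lymphatic cells, where it was high, so its calls are not independent of the filter. In gCap it held 0.49, 0.59 and 1.29 CPM, by value below empty droplets (1.43, 1.72 and 1.89 CPM). Lymphatic cells were also called higher than gCap for Lepr (121, 171 and 143 CPM) and for Il27ra (1.87, 7.43 and 14.7 CPM). Neither chain was called between lymphatic cells and artery. Lepr was lower in aCap than in gCap (-2.765). 

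The comparison between libraries rests on 1 library per group, so no test between groups can be made, and a gene was counted as past the fold where the log2 ratio of (CPM + 1) reached 0.5 in size, about 1.41-fold, with a mean of at least 5 CPM. In gCap at 6 h, Osmr and Stat3 were past the fold upwards and Lifr downwards. None of the 3 was past it in gCap cells without a UMI of the stress genes Hspa1a, Hspa1b or Atf3 (Osmr 0.41, Stat3 0.19 and Lifr -0.27), which made up 53.2% of gCap in the control, 24.8% at 6 h and 59.4% at 30 h. Without barcodes that held 2 or more UMIs of other lineages, a filter that kept 15.0% of gCap in the control and 24.6% at 6 h, Osmr (0.27) and Stat3 (0.42) were inside the fold and Lifr (-0.53) past it. Of the 10 genes, 9 passed the minimum level and 3 were past the fold, where 4.86% of 10023 genes were (2.92% higher, 1.94% lower). The median log2 ratio of the 9 genes was 0.31, with 7 above 0, against a median of -0.01 over all genes. At 30 h the same 9 genes had a median of -0.32, with only Il31ra above 0, against -0.07 over all genes, and 2 were past the fold (Il31ra upwards and Stat3 downwards), where 12.9% of genes were (6.16% higher, 6.72% lower). Over all ECs, Osmr alone was past the fold at 6 h (67.1 to 98.0 CPM, log2 ratio 0.54), with Stat3 at 0.49 and Lifr at -0.48 just inside and 4.38% of all genes past it. At 30 h Osmr (45.8 CPM, -0.54) and Stat3 (-0.61) were past it downwards and Il31ra upwards (2.14), where 13.2% of all genes were. Osmr was inside it with TMM scaling (-0.48), with mitochondrial, ribosomal protein and rRNA-like genes left out of the total (-0.4955) and without the stress-gene cells (-0.44).

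Osmr in gCap went from 71.3 CPM in the control to 108 at 6 h and 52.7 at 30 h. The rate ratio was 1.51 at 6 h (95% interval 1.45 to 1.57, log2 ratio 0.59, above 97.8% of the genes tested) and 0.74 at 30 h (0.70 to 0.77, log2 ratio -0.43, inside the fold). The 30 h value was past the fold, at -0.68, without the other-lineage barcodes, and it was -0.28 without the stress-gene cells. The log2 ratio of 30 h against 6 h was -1.02. Veins showed the deepest late value: 101, 132 and 43.8 CPM, a ratio of 0.43 at 30 h (0.37 to 0.50, log2 ratio -1.19), where 16.8% of genes were past the fold. In aCap the 6 h ratio was as large as in gCap (1.54, 1.33 to 1.79), with 3.39% of genes past the fold. Arterial Osmr, already high, held 189 CPM in the control and 208 at 6 h, with overlapping intervals, and lay at 123 CPM at 30 h (ratio 0.65, 0.55 to 0.76), where 27.2% of genes were past the fold. Lymphatic cells moved the other way at 6 h, from 133 to 71.8 CPM (ratio 0.54, 0.34 to 0.84), but on 50 cells and where 39.2% of genes were past the fold. Empty droplets, which carry the free RNA of the suspension, held 43.2, 73.8 and 34.5 CPM of Osmr and moved in the same directions as gCap. The aCap level lay below theirs in all 3 libraries. The part of free RNA in that level and its 6 h ratio was not tested. In gCap cells without the stress-gene UMIs Osmr held 66.4, 88.6 and 54.5 CPM.

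The number of gCap cells in which Osmr was seen followed its level. At 2000 UMIs per cell, 11.5% of gCap cells held an Osmr UMI in the control (exact binomial 95% interval 10.8 to 12.3), and in the melanoma libraries the share was 17.4% at the early time (16.5 to 18.3) and 8.75% at the late one (8.03 to 9.52). Without thinning the shares were 33.2%, 43.9% and 29.0%, at median depths of 7905, 8248 and 8757 UMIs. Barcodes with platelet markers, which should lack Osmr, held a UMI in 1.94%, 2.60% and 0.36% of 206, 308 and 276 barcodes, at median depths of 813 to 906 UMIs, and in aCap the thinned share was 3.02% to 4.77%. In artery the thinned share was 31.1%, 30.6% and 20.95% and in vein 16.5%, 17.9% and 5.78%.

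Stat3 moved with Osmr. Its gCap level was 228 CPM in the control, 331 at 6 h and 154 at 30 h, with ratios of 1.45 (1.42 to 1.48, log2 ratio 0.54) and 0.68 (0.66 to 0.70, log2 ratio -0.56). The same order, 6 h above control above 30 h, was seen in aCap (194, 232 and 113 CPM), artery (191, 259 and 155 CPM) and vein (279, 353 and 204 CPM), although only the 30 h value in aCap was past the fold among these (-0.77), where 17.9% of genes were. Empty droplets held 170, 225 and 99.2 CPM, and gCap cells without the stress-gene UMIs 198, 226 and 137 CPM.

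Lifr took the opposite course at 6 h, going in gCap from 326 to 228 CPM (ratio 0.70, 0.68 to 0.71, log2 ratio -0.52) and standing at 249 CPM at 30 h (log2 ratio -0.39). The 6 h value sits at the edge of the fold and TMM scaling put it at -0.50, just inside. In gCap cells without the stress-gene UMIs Lifr held 348, 289 and 249.7 CPM. Vein gave 389, 274 and 312 CPM (-0.50 at 6 h, where 9.01% of genes were past the fold) and artery 415, 349 and 279 CPM (-0.57 at 30 h). aCap, with 154, 143 and 158 CPM, changed by less than the fold at both times. In gCap at 6 h, the 2 chains that can pair with gp130 for OSM thus lay on opposite sides of the control, Osmr above and Lifr below.

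Il6st itself, Jak1, Jak2, Tyk2 and Il11ra1 were inside the fold in gCap at both times against the control. Il6st held 216, 257 and 175 CPM (log2 ratios 0.25 and -0.30) and Jak2 52.6, 65.5 and 41.3 CPM (0.31 and -0.34). Between 6 h and 30 h, where both arms had received melanoma cells, the log2 ratio was -0.55 for Il6st and -0.65 for Jak2 in gCap. With Osmr (-1.02) and Stat3 (-1.09), 4 of the genes were past the fold downwards there and Il31ra upwards, where 6.53% and 6.38% of all genes were. Without the stress-gene cells Jak2 was inside the fold (-0.45), which left 3 downwards. In vein Jak2 was also lower at 30 h than in the control (58.6 to 36.3 CPM, -0.68). In the few lymphatic cells, where 39.2% of all genes were past the fold at 6 h and 38.2% at 30 h, Il11ra1 had log2 ratios of 0.81 and 0.62, and at 6 h Jak2 (0.82, ratio interval 0.97 to 3.36) and Tyk2 (-1.45, from 19 to 5 UMIs) moved on very few UMIs.

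**Figure D3:**
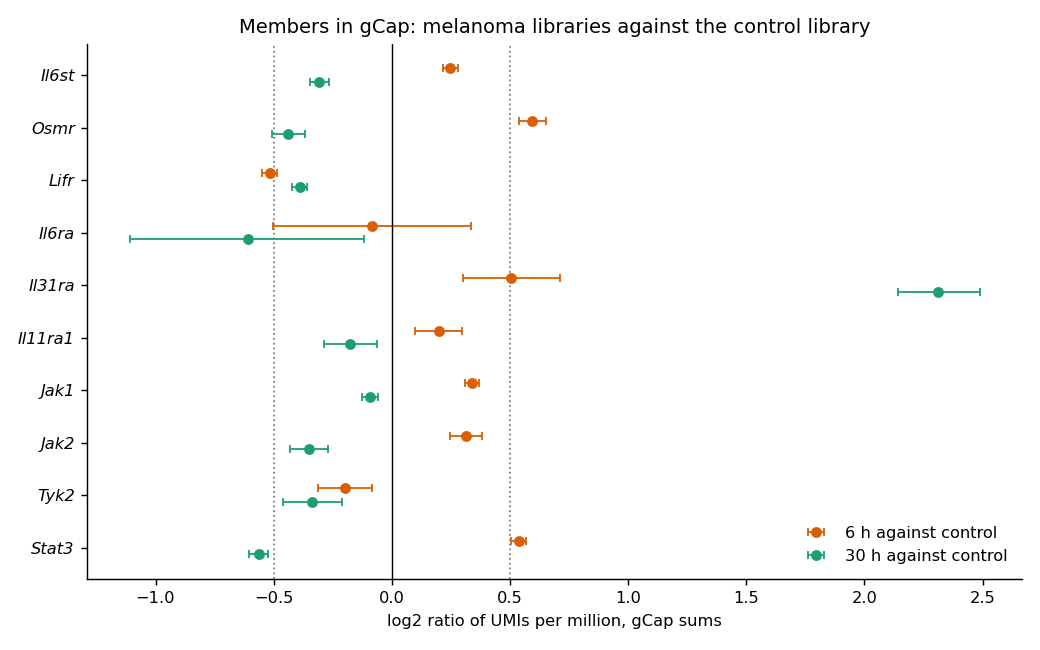
Log2 ratio of CPM in gCap, without a pseudocount, for the 10 genes at 6 h (orange) and 30 h (green) against the control, with exact conditional 95% intervals for counting error; dotted lines mark 0.5 in either direction. Osmr and Stat3 lie right of the upper line at 6 h and left of 0 at 30 h, Lifr lies left of 0 at both times, and Il31ra at 30 h lies far to the right. Il31ra at 6 h touches the line here and is at 0.44 with the pseudocount, and Il6ra is under the minimum level.

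Cells of gCap in which Osmr was seen also held more Stat3 than the rest, in all 3 libraries. In the 6 h library, thinned to 2000 UMIs, the 1227 gCap cells with an Osmr UMI held 400 CPM of Stat3 against 314 CPM in the 5824 without (ratio 1.27, 95% interval 1.19 to 1.37). The 7 targets and inhibitors looked at were picked without a rule, and most of them were past the fold at 6 h. The spread of this ratio over all genes was not computed. The 7 lay between 1.13 for Junb (1.10 to 1.17) and 1.44 for Pim3 (1.30 to 1.58), with Il4ra at 1.39, Sbno2 and Bcl3 at 1.38, Cebpd at 1.27 and Socs3 at 1.20. The chains Il6st and Lifr were at 1.12 (1.03 to 1.22) and 0.92 (0.84 to 1.01). Their ratios were 1.15 (1.04 to 1.28) and 1.05 (0.96 to 1.14) in the control and 1.10 (0.94 to 1.29) and 1.19 (1.05 to 1.34) at 30 h. The kinases Jak1 and Jak2 were at 1.16 (1.08 to 1.24) and 1.27 (1.08 to 1.49) at 6 h. Their control ratios were 1.14 (1.04 to 1.25) and 1.14 (0.92 to 1.41). At 30 h Jak1 was at 1.08 (0.95 to 1.23) and Jak2 at 0.94 (0.64 to 1.32). In the control the ratio was 1.14 for Stat3 (1.02 to 1.26), and Bcl3 (1.45, 1.10 to 1.89), Sbno2 (1.26, 1.09 to 1.46) and Cebpd (1.12, 1.06 to 1.19) had intervals above 1, whereas those of Pim3 (1.05), Il4ra (1.11), Socs3 (1.04) and Junb (1.00) included 1. At 30 h Stat3 was at 1.30 (1.12 to 1.52), Bcl3 at 1.64 (1.12 to 2.34), Pim3 at 1.26 (1.00 to 1.57), Cebpd at 1.21 (1.11 to 1.31) and Junb at 0.91 (0.85 to 0.98), while the intervals of Sbno2 (1.12), Il4ra (1.09) and Socs3 (0.94) included 1. The stress genes Hspa1a and Atf3 were also higher in cells with Osmr at 6 h (1.27 and 1.26). In the control they were at 0.75 (0.44 to 1.20) and 1.09 (0.96 to 1.22) and at 30 h at 0.38 (0.12 to 0.91) and 0.82 (0.66 to 1.00), and their part in these ratios was not tested. These intervals are over UMIs within a library, and cells of 1 library are not replicates. Il6st and Osmr were seen in the same cell in 7.22% of gCap cells at 6 h against 6.55% given by the product of their shares, and in 4.27% against 3.84% in the control. Il6st together with Osmr or Lifr was seen in 18.0% at 6 h and 18.0% in the control, against 12.3% at 30 h.

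gCap cells that held UMIs of Pim3, Bcl3 and Tmem252, genes that the study uses to mark reactive capillary cells, numbered 288 in the control, 885 at 6 h and 260 at 30 h. Their Osmr level was 111, 171 and 97.3 CPM, against 69.3, 96.7 and 50.1 CPM in the other gCap cells. Stat3 held 294, 429 and 218 CPM in them against 225, 314 and 151 CPM in the others. Lifr went the other way at 6 h, with 178 CPM against 237 CPM. The study also names Osmr among the top markers of reactive capillary cells, from a clustering that included these libraries. Higher Osmr in cells picked by its fellow markers is therefore not an independent result. By RT-qPCR on isolated lung ECs, the study also reports higher Osmr at the early time after melanoma injection. Cells chosen for holding 3 given genes are deeper, with medians of 9755, 9789 and 10210 UMIs against 7822, 8080 and 8695, and Pim3 and Bcl3 are themselves listed as STAT3 targets.

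Of the feedback inhibitors, 15 of 16 passed the minimum level in gCap. At 6 h, Socs3 went from 620 to 978 CPM (ratio 1.58, 1.56 to 1.60) and Socs1, an inhibitor that binds the JAK kinases, from 14.6 to 26.7 CPM (1.83, 1.68 to 1.99). They were the only members of the list past the fold upwards, none was past it downwards, and the median of the list was 0.07, where 2.92% of all genes were past the fold upwards. At 30 h, Socs2 (71.0 to 34.6 CPM, -1.01), Socs7 (25.1 to 15.0 CPM, -0.71) and Cish (124 to 78.4 CPM, -0.65) were past the fold downwards and none upwards, with a median of -0.39, where 6.72% of all genes were past it downwards.

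Among STAT3 targets, 20 of 24 passed the minimum level, and 11 were past the fold upwards and 1 downwards at 6 h, with a median of 0.65, against 2.92% and 1.94% of all genes. Bcl6, a transcriptional repressor, went from 13.7 to 37.2 CPM (1.38), and Bcl3, an atypical member of the IκB family, from 27.7 to 68.7 CPM (1.28). Vegfa, the endothelial growth factor, went from 241 to 459 CPM (0.92). Sbno2 (0.87), Cebpb (0.85), Fos (0.71), Junb (0.67), Ccnd1 (0.67), Gadd45g (0.67), Icam1 (0.66) and Pim3 (0.64, 97.1 to 152 CPM) completed the 11, and Bcl2l1, which encodes the survival protein BCL-XL, was the 1 past it downwards (153 to 83.7 CPM, -0.86). At 30 h, 9 were past the fold downwards: Icam1 (77.5 CPM, -1.15), Pim1 (44.3 CPM, -1.06), Gadd45g (-1.06), Il4ra (-0.77), Sbno2 (-0.75), Fos (-0.73), Lrg1 (-0.61), Irf1 (-0.59) and Cebpd (-0.50). Ccnd1, which encodes cyclin D1, was past it upwards at 285 CPM (1.55), and the median was -0.43, where 6.72% of all genes were past the fold downwards and 6.16% upwards. Many of these genes also answer to other signals, and the list does not single out STAT3.

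**Figure D4:**
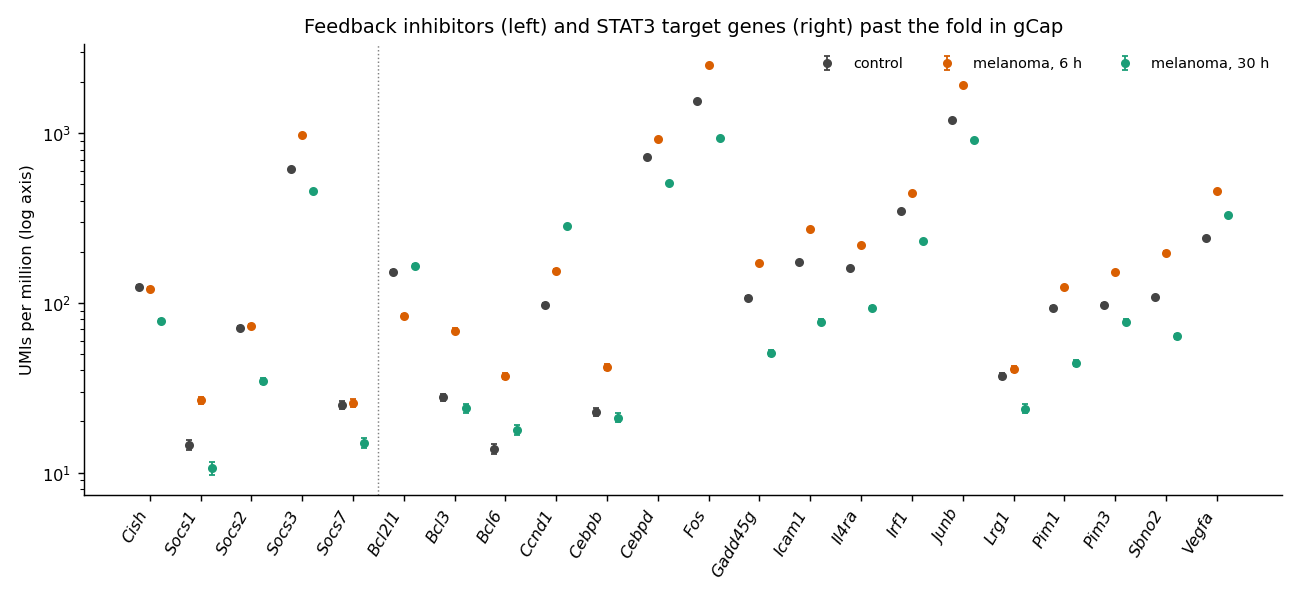
Level (CPM) in gCap on a log axis for the feedback inhibitors (left of the dotted line) and STAT3 targets (right) that were past the fold at 6 h or 30 h, with exact Poisson 95% intervals that are often smaller than the point. Most genes lie highest at 6 h, with Bcl2l1 lowest at 6 h and Ccnd1 highest at 30 h.

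Stress genes moved with the 6 h library too. Of 18 immediate early and heat shock genes, 13 were past the fold upwards in gCap at 6 h and none downwards, with a median of 0.72, against 2.92% and 1.94% of all genes. Hspa1b (13.9 to 103 CPM), Hspa1a (14.4 to 86.4 CPM), Hsph1 (10.5 to 53.7 CPM) and Atf3 (179 to 599 CPM) moved most. At 30 h, 2 were past the fold upwards and 5 downwards, against 6.16% and 6.72% of all genes, and the summed level of the list in gCap was 10723, 16431 and 8551 CPM in the 3 libraries. In gCap cells with a UMI of Hspa1a, Hspa1b or Atf3 the 6 h log2 ratio was 0.57 for Osmr, 0.49 for Stat3 and -0.53 for Lifr, and the part of these genes in the member ratios was not tested beyond that split. Of 12 measured clock and glucocorticoid genes, 1 was past the fold upwards and 5 downwards at 6 h (Zbtb16 -1.22, Per1 -0.89, Fkbp5 -0.83), and 4 upwards and 3 downwards at 30 h (Nr1d1 1.28, Fkbp5 -1.45), where 4.86% and 12.9% of all genes were past the fold in either direction, and the part of time of day in the ratios was not tested.

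Of 7 other JAK and STAT genes, 6 passed the minimum level in gCap. Jak3 was past the fold upwards at 6 h (10.8 to 15.8 CPM, 0.51) and Stat2 (107 to 70.3 CPM, -0.59) and Stat5a (12.1 to 7.14 CPM, -0.69) downwards at 30 h, that is 1 and 2 of 6, where 4.86% and 12.9% of all genes were past it.

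The ligands of the family were nearly absent from ECs. Of 11 listed, Clcf1, a ligand of the CNTF receptor, alone passed the minimum level, at 12.0, 9.90 and 7.88 CPM in gCap (-0.55 at 30 h). Over all ECs Osm held 0.18, 0.44 and 0.10 CPM and Lif 0.10, 0.74 and 0.09 CPM. Osm was seen instead in barcodes that had no Pecam1 or Cdh5 UMI and at least 3 neutrophil markers, of which there were 2 in the control, 13 at 6 h and 1 at 30 h, with 3, 76 and 1 Osm UMIs. In the 6 h library this came to 1435 CPM (1130 to 1796) in 8 of 13 barcodes. Barcodes with macrophage and monocyte markers numbered 4, 14 and 9 and held 2, 12 and 10 Osm UMIs, 68.1 CPM at 6 h. The sort removed Ptprc+ cells, yet 12 of the 13 and 13 of the 14 such barcodes at 6 h held a Ptprc UMI, so their number says how many passed the gate and not how many were in the lungs. Neither type had an Osmr UMI at 6 h, which allows up to 69.6 CPM (upper Poisson 95% limit) in the first and 20.95 CPM in the second, whereas both had Il6ra (170 and 199 CPM). Barcodes with fibroblast markers held 196, 155 and 57.8 CPM of Osmr, 241, 230 and 63.6 CPM of Il6ra and 111, 184 and 237 CPM of Il11ra1 in 34, 34 and 42 barcodes. Osm in empty droplets was 0, 3.43 and 0.94 CPM, and 0 UMIs in the control allow up to 1.06 CPM by the same limit. The 8 neutrophil markers, all detected in gCap, summed to 6.37, 16.8 and 22.7 CPM in gCap and 42.1, 283 and 217 CPM in empty droplets. The 8 epithelial markers, also all detected, summed to 511, 388 and 183 CPM in gCap, and the part of such RNA in the ratios was not tested.

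Il31ra, the IL-31 receptor chain (chr13:112519898-112594360), had the largest ratio of the 10 genes. It held 5.55, 7.88 and 27.6 CPM in gCap, a rate ratio of 4.97 at 30 h (4.41 to 5.61). The log2 ratio of (CPM + 1), which the pseudocount makes smaller at this level, was 2.13 and above that of 99.95% of genes tested. The same step was seen in every class, with 30 h levels of 23.5 CPM in aCap, 26.9 in artery, 32.8 in vein and 36.8 in lymphatic cells against 5.04 to 9.34 CPM in the controls. No class was called against gCap (edgeR adjusted p from 0.11 upwards), whereas vein was called higher than aCap by 0.46 (SE 0.13, adjusted p = 0.0085). Empty droplets held more of it than any class, at 20.6, 34.0 and 55.1 CPM, also with a step at 30 h (log2 ratio 1.38). The gene lies on the strand opposite to its neighbour Il6st and their 3′ ends are 9811 bases apart. A sum of 6 gene models that can take up ribosomal RNA (Cmss1, Cdk8, Lars2, Gm19951, Gm42418 and Gm15564) went from 4924 and 6056 to 21190 CPM in gCap and from 6392 and 8217 to 38995 CPM in empty droplets. Over 12 sums of 4 classes and 3 libraries, the genes most like Il31ra among 6996 with at least 20 CPM included Cmss1 (Pearson r of log2 CPM 0.992), Lars2 (0.992), Camk1d (0.990) and Cdk8 (0.979), which share libraries and depth, so that r is a description. The part of such RNA in the Il31ra value was not tested.

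**Figure D5:**
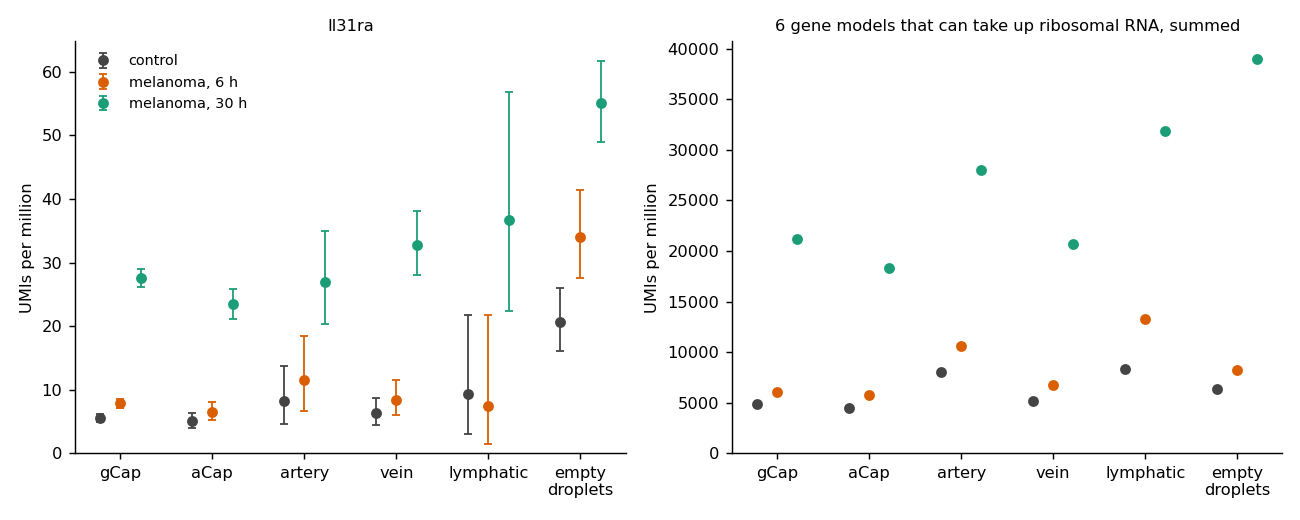
Left, the level (CPM) of Il31ra in each class and in empty droplets, with exact Poisson 95% intervals. Right, the sum of 6 gene models that can take up ribosomal RNA, in the same units: in both panels the 30 h library (green) stands above the others in every class, and for Il31ra the empty droplets hold more than the cells.

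The genes whose levels ran most like those of Osmr over the same 12 sums were Rnd3 (Pearson r 0.981), Ext1 (0.977), Sox4 (0.974), Plscr1 (0.962) and Csf1 (0.955). For Lifr they included Meis2 (0.956), Fam171a1 (0.953), Rundc3b (0.951) and Pgr (0.951).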

How the data were processed

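Single-cell 3′ RNA libraries of sorted lung ECs (3 libraries, 1 per group, named by the treatment in the labels) were analysed. The deposited values are raw UMI counts per gene and barcode for unfiltered barcodes, which the authors made with Cell Ranger 7.2.0 against mm10 per the file headers and processing notes; the methods name an older version, and whether intronic reads were counted is not given in the sources used here. Totals were 140601123, 132566934 and 124085451 UMIs, and p-values between groups cannot be had.

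Classes were gated by 8 markers each (7 for lymphatic; Lyve1 was left out): at least 6 distinct markers and 30 UMIs for gCap, 6 and 20 for aCap, 4 and 8 for artery, 5 and 12 for vein and 4 and 20 for lymphatic cells. These limits were set after the data were seen, the gCap class took barcodes that passed its gate alone, and barcodes passing 2 other gates were left out. No doublet caller was run. The members, lists and tests were chosen with earlier results of these data known. Beyond the members, the rule names the genes of the lists past the fold in gCap at either time and those most like Osmr, Lifr and Il31ra; Lepr, Il27ra, Osm, Lif and Tnfrsf1a were named after their values were seen. Class sums were tested with edgeR 4.0.16 (R 4.3.3), library as a block, and DESeq2 1.42.0 as an alternative; library ratios carry exact conditional binomial intervals (scipy 1.17.1). Each library holds every class, which is where the block comes from. On simulated counts of 12336 genes for vein against gCap, the test recovered 84.0% and 92.0% of 50 genes each at log2 changes of -1 and 1, with 0.0989% false calls. Apart from the changed genes, the simulated sums shared the same profile, and all genes had the same dispersion. They held no library effect and no other class difference, so the share of false calls does not carry over to the real tests. Gene positions are those of GENCODE M21 (GRCm38, the assembly of mm10), 1-based, and 32235 of 32285 features matched. Promoter windows are from RefSeq, GRCm38.p6. Alternatives changed the barcode filters, gates, scaling, pseudocount, minimum level, free RNA, other-lineage RNA, stress-gene cells, test and block. Of the 5 genes most like each of Osmr, Lifr and Il31ra by Pearson correlation, 2 in all are not reported here.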

Additional observations from a re-analysis of the deposited data

Results flagged for a closer look

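Some values stood apart by comparing groups or by appearing outside the comparisons, and none of these differences between groups was tested, since there is 1 library per group. Over all ECs, Osmr had a log2 ratio of 0.54 at 6 h and -0.54 at 30 h against the control. In gCap, Stat3 had 0.54 at 6 h and -0.56 at 30 h. At 6 h the Osmr ratio was 0.59 in gCap and 0.60 in aCap but -0.88 in the 50 lymphatic cells. The aCap level of Osmr lay below that of empty droplets in each library. In lymphatic cells Jak2 had 0.82 at 6 h and -0.73 at 30 h, on 20, 27 and 12 UMIs.

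Osm appeared in barcodes outside the endothelial gate in the 6 h library, at 1435 CPM in 13 barcodes with neutrophil markers, 68.1 CPM in 14 with macrophage and monocyte markers and 3.43 CPM in empty droplets. It was not confined to that library. Barcodes with neutrophil markers held 3 Osm UMIs in the control and 1 at 30 h, and those with macrophage and monocyte markers 2 and 10. Those groups had fewer than 10 barcodes each, the minimum for a flag.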

How the results depend on the processing

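Of 690 recomputed member ratios between libraries, 594 stayed within their counting interval and 96 moved by more. Over all ECs at 6 h, 1 member was past the fold; TMM scaling gave 2, with Stat3 added, and leaving out cells with Hspa1a, Hspa1b or Atf3 UMIs gave 0. Leaving out barcodes with 2 or more UMIs of other lineages kept 15.4%, 25.8% and 32.1% of ECs and gave 5 at 30 h in place of 3. In gCap at 6 h, 3 became 1 under that filter (Osmr 0.27, Stat3 0.42, Lifr -0.53) and 0 without the stress-gene cells. A filter chosen after seeing the data, on 3 or more distinct markers of another lineage, kept 84.7% to 85.9% of ECs and left the 3 counts in gCap as they were. The unthinned Osmr shares in gCap were 33.2%, 43.9% and 29.0% in place of 11.5%, 17.4% and 8.75%.

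Between classes, the count of members called against gCap was 5 for aCap without the library block in place of 9, 1 for artery in place of 2, 1 for vein in place of 5 and 3 for lymphatic in place of 5. Leaving out the other-lineage barcodes gave 1 for artery, 3 for vein, 2 for lymphatic (1, 7 and 2 cells were left) and 21 of the other pairs of classes in place of 37, and reversed Il6st (-0.044) and Osmr (-0.10) of lymphatic against aCap. For artery, stricter gates gave 5 (Il6st, Jak1 and Tyk2 added) and no filter on low counts gave 4. Leaving out 1 library gave 1 to 3 for artery, 1 to 5 for vein, 8 to 9 for aCap, 4 to 7 for lymphatic and 33 to 36 for the other pairs. The causes were not tested, except that fewer libraries leave fewer residual degrees of freedom. Of 356 member differences against gCap under an alternative, 301 kept direction and call, 32 lost the call, 11 gained it and 12 changed sign, all of them from and to uncalled values. Without other-lineage barcodes Il11ra1 in artery went to -0.24, and in lymphatic cells Osmr went to -1.81, Jak1 to -1.18, Tyk2 to -0.73 and Il31ra to -0.11. Without a filter on low counts, lymphatic Jak1 went to -0.033 and Tyk2 to -0.049. Leaving out 1 library gave -0.082 to 0.82 for Il6ra and -0.12 to 0.0061 for Jak2 in artery, -0.052 to 0.035 for Jak1 in vein, and -0.11 to 0.12 for Jak1 and -0.59 to 0.22 for Tyk2 in lymphatic cells. Lifr in vein against artery, not called, changed sign with stricter gates (0.0040), no filter on low counts (0.0076), without other-lineage barcodes (0.019) and in the range without 1 library (-0.12 to 0.091). The other 22 uncalled differences among class pairs without gCap changed sign in 25 of 197 values, none of them called. DESeq2 called 9, 3, 4 and 5 members for aCap, artery, vein and lymphatic cells against gCap. Over all genes it called 6446, 2702, 3541 and 4973, where edgeR called 6814, 2648, 3612 and 4926. For the other alternatives the share of all genes called is not given, so their counts of members cannot be set against it.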
